A study of Mus musculus with 4 samples.

Results

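The iron and oxoglutarate dependent dioxygenases are enzymes that use iron, oxygen and 2-oxoglutarate to hydroxylate or demethylate proteins, nucleic acids and small molecules. The 41 genes described here cover JmjC histone demethylases, the hydroxylases of hypoxia-inducible factor (HIF), collagen prolyl and lysyl hydroxylases, Tet3, Fto, the ALKBH family and several others. They were taken by gene symbol from the gene table of a mouse Illumina bead array. Of the 41, 38 had a named probe, on 67 of the array's 25697 probes, against 16590 named genes in all. Alkbh1, Alkbh3 and Alkbh6 were not analysed here. The brightest probe of each gene stands for it unless another is named.

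Total RNA from 4 groups of CD4 T cells was measured on 1 array per group, and all 4 came from male mice of a Foxp3-GFP reporter strain (B6.Cg-Foxp3tm2Tch/J), in which green fluorescent protein (GFP) marks Foxp3-expressing cells. Conventional induced regulatory T cells (iTreg) were grown from naive CD4 cells (GFP-negative, CD44 low) for 5 to 6 days with antibodies to CD3 and CD28 at 1 µg/ml each, TGF-beta (10 ng/ml) and IL-2 (15 ng/ml), and re-sorted as GFP-positive CD25-positive cells. Vitamin C iTreg had vitamin C at 10 µg/ml in the same culture. Natural Treg (CD4+CD8-GFP+) and naive CD4 cells (CD4+CD8-GFP-, CD44 low) were sorted from lymph node and spleen and not cultured. How many mice stand behind each array, and whether animals were pooled, is not stated in the labels.

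Vitamin C (ascorbate) keeps the iron of these enzymes in its reduced form, and scurvy is known as a failure of collagen prolyl and lysyl hydroxylation. In T cells the EGLN enzymes mark HIF for degradation, JmjC demethylases remove methyl groups from histone lysines, TET enzymes oxidise 5-methylcytosine, and FTO and ALKBH5 act on methylated RNA. An array reads the RNA of these enzymes, not their activity, which oxygen, iron and ascorbate set directly.

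With 1 array per group, no test was possible and no p-value was computed. Each difference describes a pair of arrays. The labelled cell types were checked against their markers. Foxp3 was detected on the 3 Treg arrays and not on the naive array, and all 5 CD4 T cell markers with a probe were detected on every array. Of 8 Treg markers, each iTreg array detected 7, natural Treg 8 and naive CD4 5. Ikzf2 was detected in natural Treg only (log2 10.56). Of the 4 naive cell markers with a probe, 3 were at least 2-fold lower in conventional iTreg than in naive CD4. Ccr7 was not lower (11.73 against 11.64). Of other cell types, each array detected 2 or 3 of 8 B cell markers and 2 or 3 of 10 myeloid markers. It also detected 2 or 3 of 7 CD8 T and NK cell markers and 0 of 7 fibroblast markers. Of the B cell markers, Cd79b was detected in natural Treg (log2 9.97) and naive CD4 (7.60) only. Cd74 and H2-Ab1 were detected on all 4 arrays, highest in conventional iTreg (11.56 and 10.5). Of the myeloid markers, Fcer1g was detected in conventional iTreg (6.29) and vitamin C iTreg (8.20) only, and Cst3 and Ctss on all 4 arrays. Of the CD8 T and NK cell markers, Cd8b1 was detected on all 4 arrays (log2 10.34 in conventional iTreg, 10.90 with vitamin C, 11.41 in natural Treg and 11.97 in naive CD4). Nkg7 was detected on the 3 Treg arrays (12.93, 11.23 and 10.46) and Klrd1 on the others than natural Treg (8.68, 7.69 and 10.88), while Cd8a, Ncr1, Klrb1c and Gzma were detected on none. The part of these genes' source cells in the differences was not tested. The arrays detected 7027 to 7603 genes at a detection p under 0.01. In whole-population RNA, fewer cells that express a gene and less of its RNA per cell cannot be told apart. The 1 internal measure of error was how far probes of the same gene lay apart, all read from 1 RNA on 1 array. For vitamin C iTreg against conventional iTreg, such probes disagreed by 0.11 on the log2 scale in the median over 1948 genes, and by less than 0.40 in 95% of them.

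Of the 38 genes, 23 were detected on all 4 arrays, 4 on some and 11 on none. The array of conventional iTreg detected 27 of them, that of vitamin C iTreg 26, natural Treg 25 and naive CD4 24. Of all 16590 genes, the arrays detected 7603, 7547, 7429 and 7027 in the same order, so that order is not particular to the family. All 4 arrays detected 6547 genes, and 8236 were detected on at least 1. Against naive CD4, 7 of 27 members differed by at least 2-fold in conventional iTreg, where 27.9% of all genes did: Egln3, Plod2 and Plod3 were higher, and P4ha1, Alkbh4, Alkbh8 and Kdm4c were lower.

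**Figure D1:**
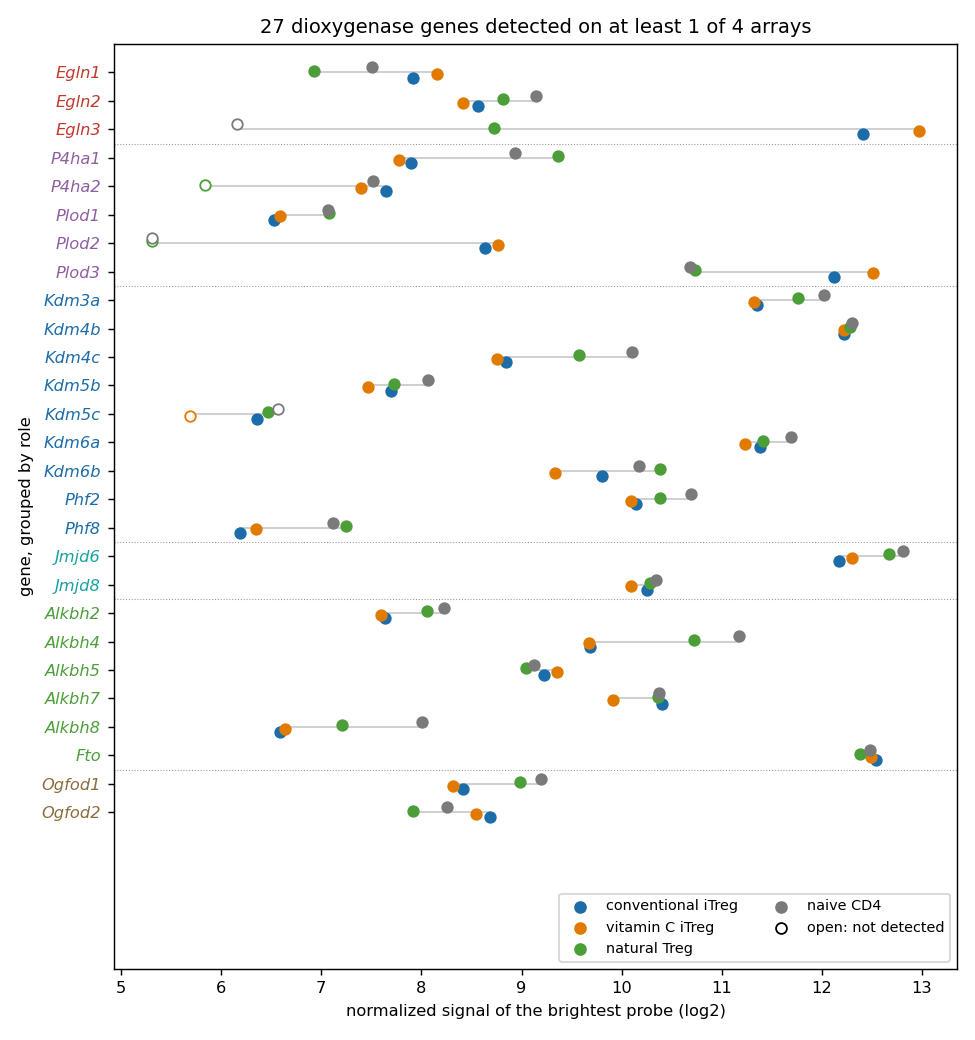
Normalized log2 signal of the 27 dioxygenase genes detected on at least 1 array, 1 point per array and gene, with open points where the array did not detect the probe and labels coloured by role. Points are to be compared within a row, since probes of different genes differ in brightness. The row of Egln3 runs from 6.16 on the naive array to 12.97 on the vitamin C array, while that of Kdm4b spans 0.09.

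The HIF hydroxylases held the gene with the widest range. Egln3 encodes PHD3, a prolyl hydroxylase of HIF whose own gene is a known HIF target. Its normalized log2 signal was 12.41 on the conventional iTreg array, 12.97 with vitamin C, 8.73 in natural Treg and 6.16 in naive CD4, where it was not detected. The deposited linear intensities behind these were 5810, 9396, 464 and 154. Both cultured cell populations stood far above natural Treg, and natural Treg above naive cells. On the background-corrected scale, with the naive value raised to the lowest detected signal, conventional iTreg had at least 54.3-fold more Egln3 signal than naive CD4, vitamin C iTreg at least 80.3-fold and natural Treg at least 4.24-fold. These bounds hold for that scale alone. Without background correction the log2 bounds were smaller, at 4.81, 5.36 and 1.39. A second, dim Egln3 probe (ILMN_2782101) read 4.99 on the conventional array, 6.10 with vitamin C, 4.76 in natural Treg and 4.88 in naive CD4. It was detected on none of them, and its highest value was also on the vitamin C array. All large Egln3 differences therefore rest on 1 probe, ILMN_2605819. With both probes averaged, the undetected naive value was again raised to the lowest detected signal. The log2 bounds over naive CD4 were then 2.05 for conventional iTreg, 2.89 for vitamin C iTreg and 0.10 for natural Treg. The last is a floor and does not show that natural Treg and naive CD4 were level.

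Egln1 encodes PHD2, the main oxygen sensor that restrains HIF. Its log2 signal was 7.92 in conventional iTreg, 8.16 in vitamin C iTreg, 6.93 in natural Treg and 7.51 in naive CD4. Natural Treg was the lowest of the arrays and both iTreg arrays the highest, and the other 2 Egln1 probes gave that order too for iTreg, naive and natural Treg. Against conventional iTreg, natural Treg differed by -0.99 at the brightest probe and by -1.24 and -0.58 at the others. Egln2, which encodes PHD1, ran the other way: 8.57 in conventional iTreg, 8.42 with vitamin C, 8.82 in natural Treg and 9.14 in naive CD4. Hif1an, the asparaginyl hydroxylase FIH that blocks HIF from its coactivators, was not detected on any array.

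Among the collagen hydroxylases, members of the same enzyme class went in different directions. Plod2, a lysyl hydroxylase of collagen telopeptides and a known HIF target, had a log2 signal of 8.64 in conventional iTreg and 8.77 in vitamin C iTreg, and 5.31 in both natural Treg and naive CD4. Neither ex vivo array detected it, so that conventional iTreg was at least 3.97-fold and vitamin C iTreg at least 4.36-fold above naive CD4 on the background-corrected scale. Without that correction the log2 bounds were 1.32 and 1.43. Plod3, which also adds the glucose of collagen's disaccharide, read 12.12, 12.51, 10.73 and 10.68 in the same order of arrays. It was present on all of them, with a difference of 1.44 for conventional iTreg and 1.83 for vitamin C iTreg over naive CD4. Plod1, the lysyl hydroxylase of the collagen helix, was dim and ran the other way, at 6.53 and 6.59 in iTreg against 7.08 in natural Treg and 7.07 in naive CD4.

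P4ha1 and P4ha2 encode alternative catalytic subunits of collagen prolyl 4-hydroxylase. P4ha1 read 7.90 in conventional iTreg, 7.78 with vitamin C, 9.36 in natural Treg and 8.93 in naive CD4, and was thus lower in culture. P4ha2 read 7.65 in conventional iTreg, 7.40 with vitamin C, 5.84 in natural Treg and 7.52 in naive CD4. Natural Treg was the 1 array on which P4ha2 was not detected, at least 2.31-fold below naive CD4 and at least 2.53-fold below conventional iTreg on the background-corrected scale. Without that correction the bounds were -0.66 and -0.75 log2, which do not establish 2-fold. Natural Treg thus had the highest P4ha1 signal and the lowest P4ha2 signal of the 4 arrays. P4ha3, a further catalytic subunit, was detected on none. All 7 fibroblast markers, which include 3 collagen chain genes, were also undetected on every array.

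The 300-base promoters of 4 members are given as examples of the 7 genes that differed by 2-fold or more between iTreg and naive CD4, Egln3 and Plod3 upward and P4ha1 and Alkbh8 downward. They were chosen after their values were seen, among those with a single promoter in the table. They run from 250 bases before to 50 after the start site, 5′ to 3′ on the gene's strand, from RefSeq on GRCm38.p6: Egln3 at chr12:54203825-54204124 (minus strand), Plod3 at chr5:136986769-136987068 (plus), P4ha1 at chr10:59323046-59323345 (plus) and Alkbh8 at chr9:3334981-3335280 (plus). Capitals mark ACGTG, the core of many hypoxia response elements, and GCGTG, its other common form, on either strand, where none of the matches shown overlap.
Egln3: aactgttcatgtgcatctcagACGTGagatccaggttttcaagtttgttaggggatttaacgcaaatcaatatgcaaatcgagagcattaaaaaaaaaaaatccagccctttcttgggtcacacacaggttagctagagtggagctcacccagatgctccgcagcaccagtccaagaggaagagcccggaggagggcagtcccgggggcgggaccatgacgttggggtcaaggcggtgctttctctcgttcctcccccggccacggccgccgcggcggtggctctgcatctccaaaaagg
Plod3: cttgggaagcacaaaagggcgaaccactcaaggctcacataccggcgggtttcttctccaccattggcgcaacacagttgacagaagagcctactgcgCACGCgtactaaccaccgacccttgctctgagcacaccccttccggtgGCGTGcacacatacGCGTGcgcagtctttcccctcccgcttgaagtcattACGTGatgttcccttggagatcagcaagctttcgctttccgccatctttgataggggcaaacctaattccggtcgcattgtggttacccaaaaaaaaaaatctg
P4ha1: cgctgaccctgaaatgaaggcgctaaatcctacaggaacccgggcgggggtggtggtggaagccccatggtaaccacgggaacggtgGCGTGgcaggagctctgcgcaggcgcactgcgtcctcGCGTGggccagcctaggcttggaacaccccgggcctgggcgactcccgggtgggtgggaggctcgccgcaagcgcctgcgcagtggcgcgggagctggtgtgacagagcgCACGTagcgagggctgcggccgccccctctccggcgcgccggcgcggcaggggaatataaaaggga
Alkbh8: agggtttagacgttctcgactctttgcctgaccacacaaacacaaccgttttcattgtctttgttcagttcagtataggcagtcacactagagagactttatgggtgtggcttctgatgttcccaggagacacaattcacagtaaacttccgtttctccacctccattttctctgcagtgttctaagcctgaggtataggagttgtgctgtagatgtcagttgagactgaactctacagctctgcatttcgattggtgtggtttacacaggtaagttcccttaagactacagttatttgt

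Egln3 had 1 match, an ACGTG that begins 229 bases before the start site. Plod3 had 4 matches and P4ha1 3, of which 1 in each was ACGTG, while Alkbh8 had 0 in this window. Of the other members at 2-fold, Alkbh4 had 2 matches over 3 promoters and Kdm4c 6 over 2, and no promoter was found for Plod2. Matches were thus present in 2 genes that were higher in culture and in 3 of the 4 that were lower. Of 32851 promoters of this length in the table, 43.8% held either motif, 19.6% ACGTG and 32.4% GCGTG. Promoters were found for 33 of the 38 genes, with 42 promoters in all, of which 25 (59.5%) held either motif. These are matches of letters, not sites.

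The histone demethylases were led by naive CD4 or natural Treg in each detected gene. Kdm4c, which demethylates lysine 9 of histone H3, had a log2 signal of 8.85 in conventional iTreg, 8.76 with vitamin C, 9.57 in natural Treg and 10.10 in naive CD4. Its iTreg values lay below both ex vivo values, by 1.25 for conventional iTreg against naive CD4. Kdm3a, a lysine 9 demethylase and known HIF target, read 11.35, 11.32, 11.76 and 12.02 in the same order, and its other 2 probes gave -0.58 and -0.68 for conventional iTreg against naive CD4 beside -0.67 at the brightest. Unlike Egln3 and Plod2, this HIF target was thus lower in both cultures. Phf8 encodes a demethylase of lysines 9 and 20 on an X-linked gene, and read 6.19, 6.35, 7.25 and 7.12. Natural Treg exceeded conventional iTreg in Phf8 by 1.06, and both iTreg values lay close to the lowest signal detected on those arrays, 6.16 and 6.19.

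Kdm6b and Kdm6a encode JMJD3 and UTX, which remove the repressive methyl marks of lysine 27. Kdm6b read 9.80 in conventional iTreg, 9.33 with vitamin C, 10.38 in natural Treg and 10.17 in naive CD4, so the vitamin C array was the lowest. A dimmer Kdm6b probe gave 8.13, 7.93, 8.03 and 8.24, with the vitamin C array again the lowest. The probes disagreed on natural Treg against naive CD4, which was 0.21 at the brighter and -0.22 at the dimmer probe. Kdm6a was nearly level, at 11.38, 11.23, 11.41 and 11.69.

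Kdm5b and Kdm5c encode demethylases of lysine 4. Kdm5b read 7.70 in conventional iTreg, 7.47 with vitamin C, 7.73 in natural Treg and 8.07 in naive CD4. Kdm5c was near background, at 6.36, 5.69, 6.47 and 6.57, and was detected in conventional iTreg and natural Treg. A second Kdm5c probe (ILMN_1253604) was detected in natural Treg and naive CD4 instead, and its value was also lowest on the vitamin C array, at 5.33. The last Kdm5c probe was detected nowhere and differed by 0.30 rather than -0.47 and -0.68 between the iTreg arrays, so the probes did not share a direction. Kdm4b was the most even detected member, at 12.22, 12.22, 12.28 and 12.30, and its second probe stayed between 7.98 and 8.12. Phf2, a relative of Phf8, ranged from 10.09 to 10.69. Kdm2b, Kdm4a and Kdm4d had no detected probe.

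**Figure D2:**
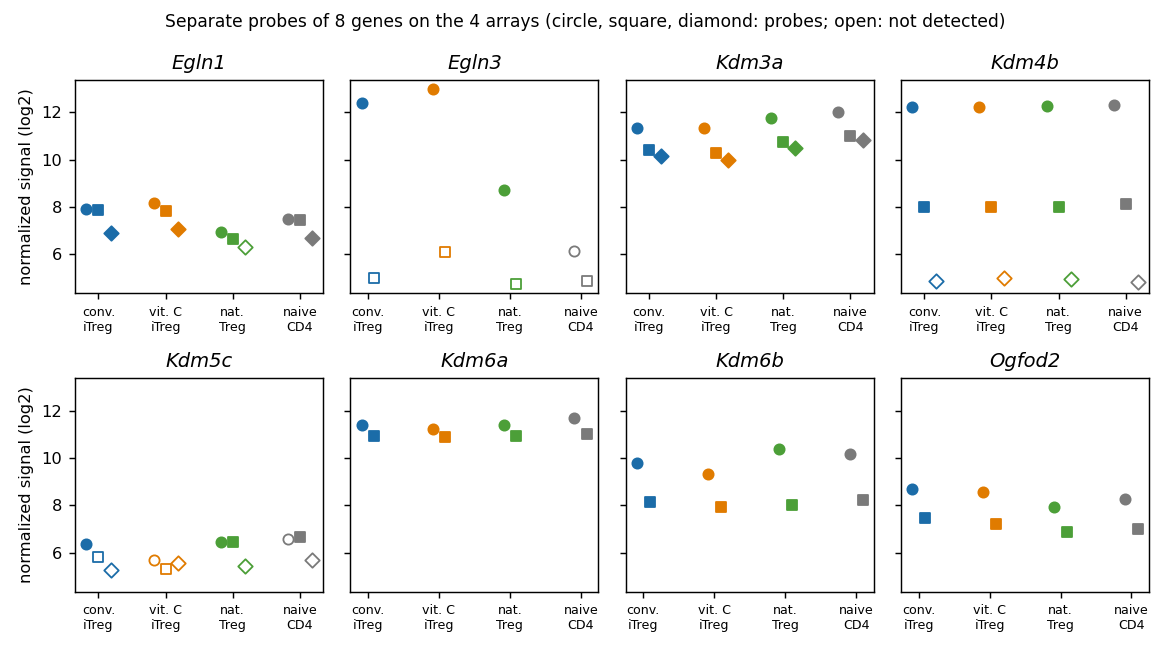
Normalized log2 signal of every probe of 8 genes with more than 1 probe, by array, with circles, squares and diamonds for the brightest, next and last probe and open symbols where the probe was not detected. For Egln3 the bright probe spans 6.16 to 12.97 and the other stays between 4.76 and 6.10, while the probes of Kdm3a are all highest on the naive array.

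In the FTO and ALKBH family, Alkbh4 and Alkbh8 were lower in culture and Fto and Alkbh5 were nearly level. Alkbh8 encodes an enzyme that modifies the wobble uridine of transfer RNA, and read 6.59 in conventional iTreg, 6.64 with vitamin C, 7.21 in natural Treg and 8.01 in naive CD4. Alkbh4, a demethylase reported to act on actin, read 9.68, 9.67, 10.72 and 11.17 in that order. For both genes the iTreg arrays were the 2 lowest and naive CD4 the highest, with -1.42 for Alkbh8 and -1.50 for Alkbh4 between conventional iTreg and naive CD4. Alkbh2, which repairs alkylated DNA, followed the same order of groups at a smaller size, at 7.64, 7.60, 8.06 and 8.23. Fto, which demethylates N6-methyladenosine in RNA, stayed between 12.38 and 12.54, and Alkbh5, which acts on the same mark, between 9.04 and 9.35. Alkbh7, a mitochondrial member, read 10.40, 9.91, 10.36 and 10.37, so that the vitamin C array stood alone below the other 3. It had no other probe.

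Tet3 was not detected on any array. Its probe ILMN_1223556 read 5.36 in conventional iTreg, 5.00 with vitamin C, 5.28 in natural Treg and 5.10 in naive CD4, with detection p-values from 0.112 to 0.296. The other Tet3 probe read 4.92, 4.99, 5.23 and 4.88. These values lie below the lowest detected signal of each array, which was 6.16 to 6.65, and are given no order.

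Of the remaining members, Jmjd6, a lysyl hydroxylase of splicing proteins, read 12.17 in conventional iTreg, 12.30 with vitamin C, 12.67 in natural Treg and 12.81 in naive CD4. Jmjd8 ranged from 10.09 to 10.34. Ogfod1, which hydroxylates a prolyl residue of the ribosomal protein RPS23, read 8.42, 8.32, 8.98 and 9.19 and was thus lower in culture. Ogfod2 was higher in culture, at 8.69, 8.55, 7.92 and 8.26, and its second probe gave the same order of iTreg over ex vivo arrays, from 7.20 and 7.47 in iTreg to 6.86 and 7.02 ex vivo. Jmjd4 was detected nowhere. Nor were Phyh, which breaks down phytanic acid, Bbox1 and Tmlhe, which make carnitine, or Asph, whose 14 probes read from 4.65 to 5.69.

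Between vitamin C iTreg and conventional iTreg, the comparison that asks how the transcripts differ when the cofactor itself is added, the 26 members detected on both arrays all lay within 1.5-fold, as 94.2% of genes detected on both did. Kdm5c, the other compared member, was not detected with vitamin C and has only a bound. Of the 27, 0 were 2-fold higher and 0 were 2-fold lower, against 0.941% and 0.812% of all 7756 genes compared, or 1.75% in either direction. With its probes averaged, Egln3 was at 0.84 and thus past 1.5-fold. The median difference was -0.05, against -0.01 over all genes, with 9 members above 0 and 18 below, against 48.4% and 51.1% of all genes. That split was 12 above and 15 below with median centring of the arrays in place of quantile normalization.

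The members that stood furthest out were Egln3 (0.56), Alkbh7 (-0.49), Kdm6b (-0.48) and Plod3 (0.40). Of these, Egln3, Alkbh7 and Kdm6b exceeded the 0.40 within which 95% of probe pairs of a gene lay. The second Kdm6b probe, detected on both arrays, gave -0.21 and did not. How many of all genes exceeded 0.40 was not counted, so these members are not set against a background. The 0.40 is a description of probe spread, not of biological replicates, and culture to culture variation is not known here. P4ha2 (-0.25), Kdm5b (-0.23), Egln1 (0.23) and Kdm5c, with a bound of -0.17, came next, and the 3 Egln1 probes gave 0.23, -0.04 and 0.16. By role, 2 of 3 HIF hydroxylases and 3 of 5 collagen hydroxylases were above 0, where 48.4% of all genes were. Below 0 were 8 of 9 histone demethylases, where 51.1% of all genes were. Of these, Kdm4b (-0.01), Kdm3a (-0.03), Phf2 (-0.06) and Kdm4c (-0.09) lay within the median probe disagreement of 0.11. Kdm6a (-0.15), Kdm5b, Kdm6b and the bound of Kdm5c lay beyond it. With median centring, 6 of 9 histone demethylases were below 0.

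**Figure D3:**
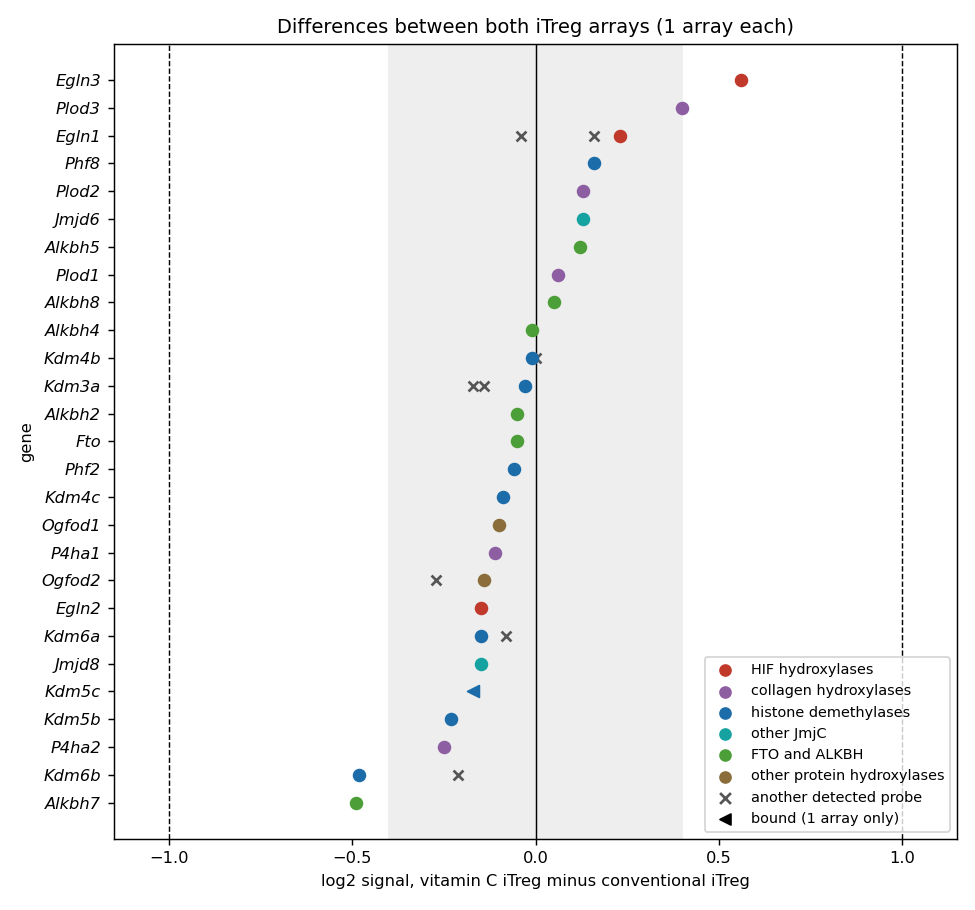
Log2 difference of vitamin C iTreg minus conventional iTreg for the 27 compared genes, ordered by size and coloured by role, with crosses for other probes detected on both arrays, a triangle for a bound, dashed lines at 2-fold and grey shading over the 0.40 within which 95% of probe pairs lay. All points lie inside the dashed lines. Egln3, Alkbh7 and Kdm6b lie outside the shading at their brightest probes, while the cross of Kdm6b lies inside it.

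Conventional iTreg against naive CD4, the cells they were grown from, put Egln3, Plod2 and Plod3 at least 2-fold higher and Alkbh4, Alkbh8, Kdm4c and P4ha1 at least 2-fold lower, out of 27 members compared. That is 3 higher and 4 lower, where 13.2% of all 7963 genes were 2-fold higher and 14.7% lower (27.9% in either direction), so neither count stands far from the background. The median over members was -0.36, against -0.08 over all genes, with 9 above and 17 below 0, where 43.2% and 53.5% of all genes lay. By role, 8 of 9 histone demethylases were below 0 and the ninth, Kdm5c, was at a bound of 0.00. With median centring 8 were below and 1 above. P4ha1 (-1.03) and Kdm4c (-1.25) were nearest to the limit on its inner side, and Phf8 (-0.93) and Ogfod1 (-0.76) on its outer side. Stimulation, TGF-beta and growth in culture cannot be told apart in this comparison. Without background correction Alkbh8 was at -0.87 and P4ha1 at -0.80, both short of 2-fold.

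Vitamin C iTreg against naive CD4 uses the same naive array. It gave 3 members higher and 4 lower of 26, the same 7 genes, beside 13.8% and 16% of all 7945 genes, or 29.8% in either direction. Egln3 had a bound of 6.33, Plod2 a bound of 2.12 and Plod3 a difference of 1.83. Alkbh4 was at -1.50, Alkbh8 at -1.37, Kdm4c at -1.34 and P4ha1 at -1.14, with Ogfod1 (-0.87) and Kdm6b (-0.84) just short of the limit. Without background correction Alkbh8 was at -0.85 and P4ha1 at -0.88, both short of 2-fold. The median over members was -0.49, against -0.09 over all genes, with 7 members above 0 (43.4% of all genes) and 19 below (53.6%). All 8 compared histone demethylases were below 0, also with median centring.

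Natural Treg against naive CD4, both sorted without culture, had fewer members at 2-fold, as it had fewer genes of any kind. Of 26 members compared, Egln3 was at least 2-fold higher, with a bound of 2.08, and P4ha2 at least 2-fold lower, with a bound of -1.21. That is 1 each way, beside 6.03% of all 7582 genes higher and 2.03% lower, or 8.06% in either direction. Without background correction the P4ha2 bound fell short of 2-fold, and with probes averaged that of Egln3 did. A bound short of 2-fold does not show that the difference is smaller. Nearest below the limit were Alkbh8 (-0.80) and Egln1 (-0.58). All 6 compared FTO and ALKBH genes were below 0, with a median of -0.14. With median centring their median was -0.18, but that setting also moved the median of all genes, from -0.05 to -0.1. The median over all members was -0.16, against -0.05 over all genes, with 6 above 0 (41.0% of all genes) and 19 below (56.4%). The CD44 gate on the naive cells cannot be told apart from Treg identity here.

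**Figure D4:**
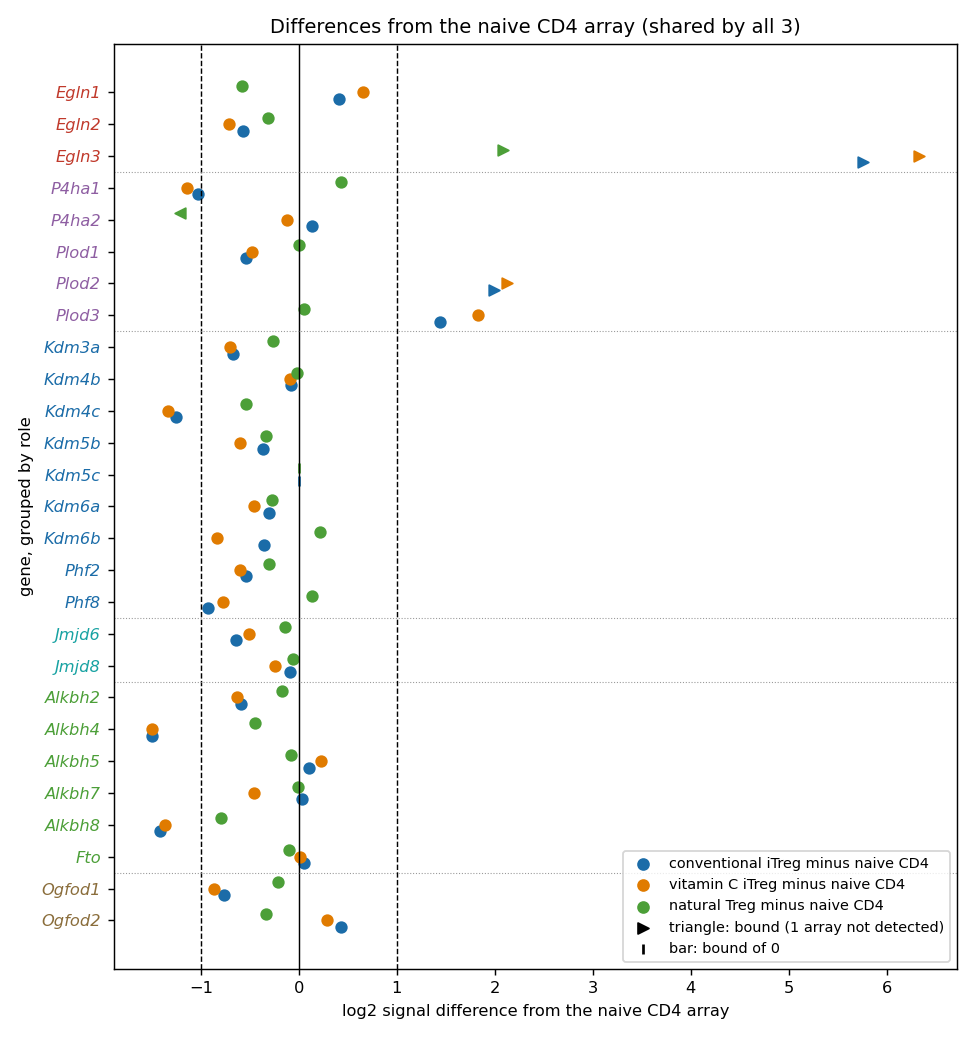
Log2 difference from the naive CD4 array for conventional iTreg, vitamin C iTreg and natural Treg, for the 27 detected genes grouped by role, with triangles for bounds, bars for a bound of 0 and dashed lines at 2-fold. The 3 sets share the naive array. Both iTreg arrays lie past the lines for Egln3, Plod2, Plod3, P4ha1, Kdm4c, Alkbh4 and Alkbh8, and natural Treg for Egln3 and P4ha2.

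Natural Treg against conventional iTreg had 3 members at least 2-fold higher, P4ha1 (1.46), Phf8 (1.06) and Alkbh4 (1.04), of 27 compared. The 4 at least 2-fold lower were Egln3 (-3.68), Plod3 (-1.39) and, as bounds, Plod2 (-2.32) and P4ha2 (-1.34). Over all 8031 genes, 12% were higher and 11.1% lower, or 23.1% in either direction. With median centring P4ha1 was at 1.23, Phf8 at 0.90 and Alkbh4 at 0.88. Of the 27 members, 18 were above 0 (53.2% of all genes) and 9 below (45.7%). Egln1 (-0.99) and Ogfod2 (-0.77) were nearest outside the limit. All 9 histone demethylases were above 0 with a median of 0.23, but 5 were above and 4 below with median centring, so their direction rests on the normalization. That alternative moved the median of all genes from 0.06 to -0.07, and the members' median relative to it from 0.04 to 0.06. Culture against direct sorting cannot be told apart from the origin of the Treg, and the labels give no CD25 gate for natural Treg.

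Across all 4 arrays, both iTreg values lay below both ex vivo values in 18 of the 27 detected members, where 42.6% of 8236 genes did so, and above them in 7, where 35.1% did. This grouping was chosen after the data were seen. With median centring the counts were 13 below and 7 above, beside 35.8% and 40.4% of genes. The naive array was the highest of the 4 in 14 of the 27 members and in 37.7% of all genes. The vitamin C array was the lowest in 15 members and in 2340 of the 8236 genes. Alkbh7 and P4ha2 were the members in neither group.

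Genes around these enzymes were described from lists of pathway partners. Of 20 HIF pathway genes and targets, 12 were compared between conventional iTreg and naive CD4, and 7 were at least 2-fold higher and 2 lower (median 1.23), where 13.2% and 14.7% of all genes were. The median depends on which genes are counted: it was 0.61 with detection required on both arrays, 0.64 at a detection p under 0.05 and -0.01 with no detection filter. The glycolytic genes Hk2 (5.38) and Aldoc (a bound of 5.09) and the angiogenic factor Vegfa (a bound of 3.73) differed most. Hif1a itself read 10.91 in conventional iTreg, 10.96 with vitamin C, 10.43 in natural Treg and 9.24 in naive CD4. In natural Treg over naive CD4, 3 of 11 were higher and 1 lower (median 0.11), where 6.03% and 2.03% of all genes were. Hk2 was at 3.08, Pdk1 at -1.44 and Aldoc at a bound of 1.36. In vitamin C iTreg over conventional iTreg, 0 of 12 reached 2-fold (median -0.14), where 1.75% of all genes did. Vegfa was at -0.82, Ddit4 at -0.68 and Vhl, which targets hydroxylated HIF for degradation, at 0.47. Egln3 and Vegfa, both known HIF targets, thus differed in opposite directions on the vitamin C array.

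Of 24 further dioxygenase genes outside the 41, 14 had a probe and 10 were compared between conventional iTreg and naive CD4. The 2 at least 2-fold lower were Kdm5d (-1.26), a Y-linked lysine 4 demethylase, and Hspbap1 (-1.22), and 0 were higher (median -0.46). Of all genes, 14.7% were lower and 13.2% higher. Between the iTreg arrays 6 of 10 were above 0, where 48.4% of all genes were, and Ogfod3 (0.52) differed most. All 10 were below 0 in natural Treg against naive CD4 (median -0.31), where 56.4% of all genes were. With median centring all 10 were below 0 too (median -0.27), but the median of all genes also fell, from -0.05 to -0.1. Of 3 compared collagen partners, Crtap, a cofactor of collagen prolyl 3-hydroxylation, was 2.14 higher in conventional iTreg than in naive CD4, and P4hb, the shared subunit of prolyl 4-hydroxylase, 0.89 higher.

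The enzymes that write the marks did not share 1 direction. Of 14 compared histone methyltransferase genes, Ezh2, the writer of the lysine 27 mark, was 1.24 higher in conventional iTreg than in naive CD4, and Nsd1 was at -1.94 (median -0.02). Kdm1a, a flavin-dependent demethylase that needs neither iron nor oxoglutarate, was nearly level (0.05) and its relative Kdm1b was at -0.96. Of 7 writers and readers of N6-methyladenosine, 0 were 2-fold higher and 2 were lower, the reader gene Ythdf3 (-1.64) and the methyltransferase gene Mettl3 (-1.14). Of all genes, 13.2% were higher and 14.7% lower. Between the iTreg arrays 0 genes of these 3 lists reached 2-fold, where 1.75% of all genes did, with Eed (0.49) the furthest.

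Among genes of iron and 2-oxoglutarate supply, 5 of 22 compared genes reached 2-fold between conventional iTreg and naive CD4, where 27.9% of all genes did. Of 9 compared iron genes, the transferrin receptor gene Tfrc was 2.50 higher in conventional iTreg than in naive CD4 and 0 were 2-fold lower. Of 13 genes that make or use 2-oxoglutarate, 3 were at least 2-fold higher and 1 lower, with Glud1, which makes it from glutamate, at 1.42 and Idh2, the mitochondrial isocitrate dehydrogenase, at -2.01. Idh2 was lower in natural Treg than in naive CD4 as well (-1.48). With vitamin C, Got1 (0.39) and Idh2 (0.36) differed most from conventional iTreg. Of these 22 genes 0 reached 2-fold, where 1.75% of all genes did.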

How the data were processed

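The authors measured total RNA (550 ng per array) on Illumina bead arrays, and the submitters' processing notes name GenomeStudio 2011.1. The deposited table held a linear intensity per probe and array, not brought to a common scale (medians 132 to 157), and a deposited detection p-value for each. A second deposited table held the authors' log2 values, which equalled quantile-normalized log2 intensities within 5e-07. The sources used here do not state whether background was subtracted before deposit.

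Intensities were background-corrected against negative controls estimated from detection p-values, quantile-normalized and log2-transformed with neqc of limma 3.58.1 (R 4.3.3, offset 16). Python 3.11.15, pandas 2.3.3 and matplotlib 3.10.9 did the rest. A gene was compared when its brightest probe had a detection p under 0.01 on at least 1 of the 2 arrays. An undetected value was raised to the lowest detected signal of its array, and the difference is then a bound, set to 0 if it pointed against the detected side. Called genes differed by at least 2-fold. The steps were checked on simulated arrays, with known changes planted on a single array in brighter probes detected on every array. The check therefore does not cover probes near background or comparisons in which many genes differ. Symbols came from GEO's platform annotation, which gave 23978 probes 1 symbol each and 1719 none, and were updated through RefSeq. Named members are those at 2-fold in any comparison, the 8 that differed most between iTreg arrays, those whose probes disagree, and those nearest the limit; 3 genes per pathway list were candidates for naming. Hif1a, Kdm1a and other genes outside that rule were chosen after their values were seen. Members, lists and rules were chosen with earlier results of these data known. The 8 alternatives are given at the end.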

Additional observations from a re-analysis of the deposited data

How the results depend on the processing

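No paired analysis was possible because each group has 1 array and no replicate could be left out. Of 216 alternative values for counts and medians over members, 184 stayed within set margins. The margin was a factor of 1.5 for counts. For medians it was the probe spread divided by the square root of the number of members. Between the iTreg arrays none of these values moved past those margins. No gene at 2-fold changed direction, but a bound could not do so, since it was set to 0 if it pointed the other way. Where a 2-fold call rests on a bound, its loss does not show a smaller difference. Without background correction, and with the authors' values, 2 members were lower in conventional and in vitamin C iTreg than in naive CD4, 1 was higher in natural Treg than in conventional iTreg, and 0 were lower in natural Treg than in naive CD4. That last count was also 0 with an offset of 50 or detection on both arrays. Detection on both arrays left 1 higher in each iTreg array over naive CD4, 0 higher in natural Treg over naive CD4 and 2 lower in natural Treg than in conventional iTreg, with medians of -0.455 (conventional iTreg minus naive CD4) and 0.234 (natural Treg minus conventional iTreg). Fewer genes were tested there. Averaged probes gave 0 higher in natural Treg over naive CD4 and 0.234 for natural Treg minus conventional iTreg. Median centring gave medians of -0.242 for conventional iTreg minus naive CD4, -0.39 for vitamin C iTreg minus naive CD4, -0.216 for natural Treg minus naive CD4 and -0.013 for natural Treg minus conventional iTreg, where 14 were below 0 and 1 was 2-fold higher, and the share of higher genes among all 2-fold calls went from 51.9% to 41.6%. With no detection filter, which adds the undetected members, the medians against naive CD4 were -0.078 (conventional iTreg), -0.2 (vitamin C iTreg) and -0.069 (natural Treg), and 17, 13 and 15 members were above 0. It also gave 16 below 0 in natural Treg minus conventional iTreg and 11 with both iTreg arrays above both ex vivo arrays. Apart from what the settings themselves do, the cause was not tested. Signal near background limits Phf8, Plod1, Alkbh8 and Kdm5c, and undetected genes have no order.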
